A study of Rosa hybrid cultivar with 12 samples.

Results

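The genes described here were abundant and kept nearly the same transcript level in every library of a rose bud experiment with auxin and sucrose. They were picked by measured values. On reverse-strand read counts, a gene qualified if its mean was from 100 to 700 CPM (read counts brought to a common library size, here with sizes scaled by the TMM method) and if its highest and lowest libraries differed by less than 0.5 on the scale log2(CPM + 0.5), which is a ratio of about 1.41. Of 42307 gene IDs, 2005 lay in that CPM window and 171 met both conditions, which is 8.53% of the window. They are called steady genes below. All values of the reverse-strand column that follow entered the choice, so they are descriptions and carry no test.

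Messenger RNA was sequenced from flower buds, per the tissue label, of a wild-type Rosa hybrid cultivar. Buds were given 100 mM sucrose with NAA at 1 µM, 100 mM sucrose without it, 10 mM sucrose with NAA at 1 µM or 10 mM sucrose without it, with 3 libraries per group. NAA (1-naphthaleneacetic acid) is a synthetic auxin, and no group went without sucrose. Libraries of the same replicate number shared a harvest date (June, August or October), so each group held 1 library from each harvest. The labelled planting dates differed between the treatments of the June set, where planting date and treatment cannot be told apart. The design text mentions 2 replicates and the titles number 3, which were followed. Nothing in the labels says whether a library came from 1 plant or a pool. The series title speaks of budburst while the tissue label says flower bud, and with unnamed IDs the tissue could not be set against marker genes.

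Auxin from a growing shoot tip is known to hold back the outgrowth of side buds, whereas sucrose, the transport sugar of plants, is known to promote it. Most studies of such responses follow the genes that change. Genes that do not change serve another end: quantitative PCR needs reference transcripts that are alike in all conditions, and library scaling in RNA sequencing rests on most genes being alike between libraries. The TMM method trims the genes that differ most before it sets each library's scale, so a level called steady is steady relative to the bulk of the other genes, and not per cell or per bud. In bulk tissue, fewer cells of a type and less RNA per cell cannot be told apart. No source used here pairs these IDs with gene names, so the steady genes appear by ID, and no pathway or family could be counted among them.

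The libraries held 7369267 to 16757019 gene counts each. A steady gene had at least 479 and at most 11674 counts in a library, so counting error was small throughout. One library stood apart: replicate 1 of 10 mM sucrose with auxin had a TMM factor of 0.746, against 0.999 to 1.10 in the other 11. This bears directly on the steady genes. Before any scaling they took 2.10% of the gene counts of that library, against 2.84% to 3.20% in the others. After TMM scaling the 171 genes together summed to 28104 CPM there, and the 12 libraries ran from 27949 to 30716 CPM. The rule chose genes with near-equal scaled levels, so similar sums follow from the choice. By group, the scaled sum was 29194 ± 1324 CPM at 100 mM sucrose with auxin, 29589 ± 1427 at 100 mM without it, 28608 ± 596 at 10 mM with auxin and 29741 ± 187 at 10 mM without it (SD, n = 3 each). At 10 mM sucrose the libraries with auxin all lay below those without it in this sum, and at 100 mM the libraries with and without auxin overlapped.

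The narrowest gene of all was gene:RC4G0291400, with a range of 0.17. Its levels were 269, 270.2 and 301 CPM at 100 mM sucrose with auxin and 277, 268 and 269 CPM at 100 mM without it. At 10 mM sucrose they were 279.9, 268 and 282 CPM with auxin and 274, 288 and 279.7 CPM without it. The groups overlapped, and the highest value was that of the October library of 100 mM sucrose with auxin. Its SD on the log2 scale was 0.050 over 12 libraries, 1.92 times the SD that counting alone would give.

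The next narrowest, gene:RC3G0303400, had 164, 163 and 172 CPM at 100 mM with auxin, 164, 179 and 174 at 100 mM without it, 157, 176 and 157 at 10 mM with auxin, and 159, 174 and 162 at 10 mM without it. Its range was 0.19. In this gene the harvest held 43.9% of the variation (sum of squares) between libraries, and auxin and sucrose held 6.24% and 11.8%. Gene:RC4G0173200 averaged 114 ± 6.46 CPM at 100 mM with auxin, 113 ± 4.11 at 100 mM without it, 115 ± 5.47 at 10 mM with auxin and 110.0 ± 4.21 at 10 mM without it (SD, n = 3 each). Of all 171 it came closest to counting error, with an SD 1.51 times the counting SD.

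The other genes among the 10 narrowest had ranges of 0.23 to 0.27 and mean levels of 109 to 392 CPM. They were gene:RC2G0000800, gene:RC1G0148200, gene:RC7G0285500, gene:RC7G0078800, gene:RC1G0271800, gene:RC0G0122300 and gene:RC7G0000200. What little they varied was arranged differently from gene to gene. For gene:RC7G0285500 the harvest held 65.0% of the variation and sucrose 0.058%. For gene:RC2G0000800 the harvest held 0.869% and auxin 25.1%, and its level was 367 ± 10.96 CPM at 10 mM sucrose with auxin, against 411 ± 14.9 CPM at 10 mM without it (SD, n = 3 each). Gene:RC7G0000200 had 88.3% of its variation in neither treatment nor harvest. It had 99.9, 98.2 and 117 CPM at 100 mM with auxin, against 115, 117 and 99.9 CPM at 100 mM without it in the same order of harvests, so October was high in one group and low in the other.

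**Figure D1:**
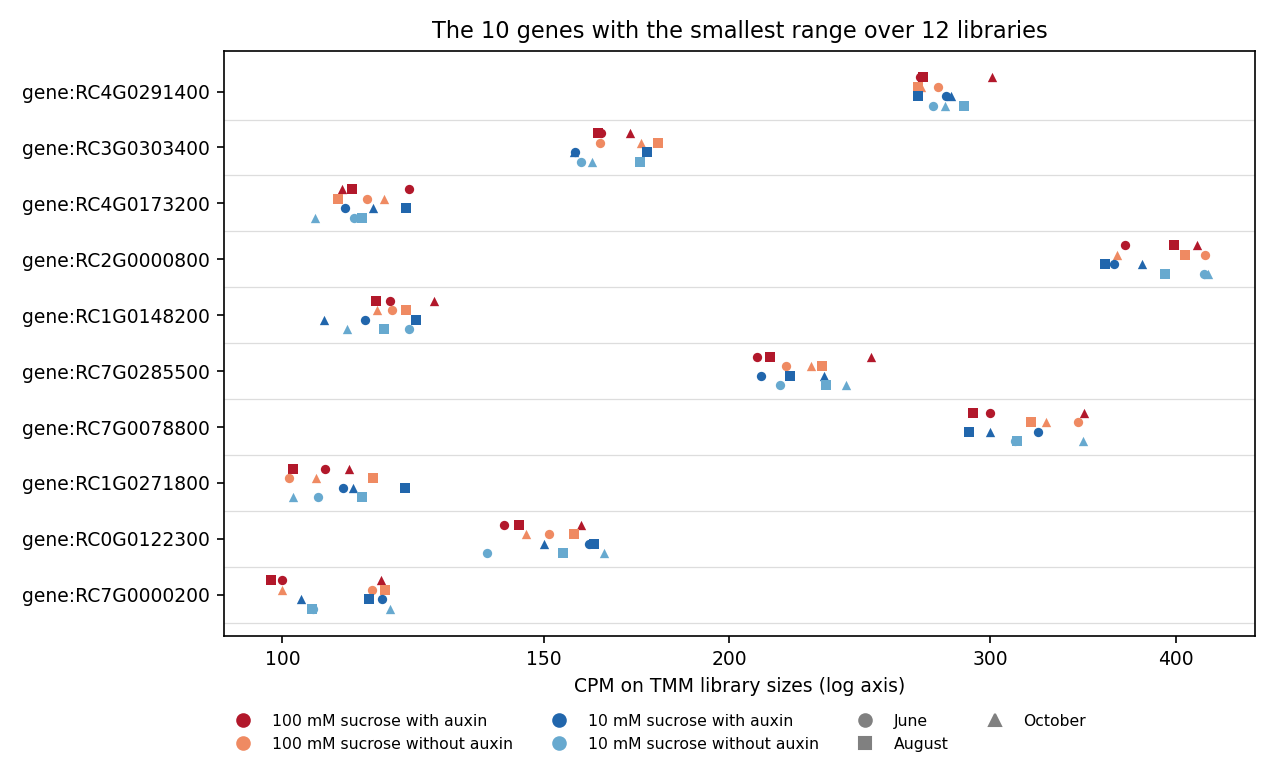
CPM on TMM library sizes (log axis) of the 10 steady genes with the smallest range, with 1 point per library, coloured by treatment and shaped by harvest. In the top row, the points of gene:RC4G0291400 span 268 to 301 CPM and its 4 treatments overlap. In the row of gene:RC2G0000800, 10 mM sucrose with auxin lies below 10 mM without it.

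Across all 171 genes, the mean level ran from 100.6 to 622 CPM with a median of 137.5, and 134 genes had a mean under 200 CPM. The range over 12 libraries ran from 0.17 to 0.50 with a median of 0.41. It was under 0.3 in 20 genes and under 0.4 in 80. The most abundant steady gene was gene:RC2G0576100. It stood at 541, 658 and 654 CPM at 100 mM with auxin, 674, 678 and 578 at 100 mM without it, 594, 553 and 584 at 10 mM with auxin and 624, 619 and 704 at 10 mM without it. At 10 mM sucrose its libraries with auxin all lay below those without, and at 100 mM they overlapped. Gene:RC1G0246000 and gene:RC5G0713700 followed at 601 and 532 CPM. At the low end stood gene:RC2G0559100, gene:RC6G0295000 and gene:RC7G0547300, at 100.6 to 101.7 CPM.

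Steady genes were less frequent at higher levels. The range stayed under the limit in 99 of 865 genes from 100 to 150 CPM (11.4%), in 50 of 634 from 150 to 250 CPM (7.89%), in 17 of 324 from 250 to 400 CPM (5.25%) and in 5 of 182 from 400 to 700 CPM (2.75%). Counting error fell over the same steps, with a median counting SD of 0.040 in the lowest and 0.019 in the highest. Above the window, 1 of 96 genes from 700 to 1400 CPM stayed under the limit, and 1 of 31 above 1400 CPM. Below it, 242 of 2423 genes from 50 to 100 CPM did (9.99%).

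The limit did not mark a gap. Genes inside and outside it lay next to each other. Gene:RC2G0112900, gene:RC2G0046800 and gene:RC5G0566000 were the last inside, with ranges of 0.4998, 0.4989 and 0.4976. Gene:RC4G0115200, gene:RC0G0116100 and gene:RC3G0362600 were the first outside, at 0.5009, 0.5016 and 0.5027. The other 1834 genes of the window had a median range of 1.27 and ran up to 11.2, and 1173 of the window's genes exceeded 1.

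Even the steady genes varied more than reads drawn at random would. Their SD of log2(CPM + 0.5) was 0.123 in the median gene, where counting alone would give 0.037. The ratio of measured to counting SD had a median of 3.40 and ran from 1.51 to 8.92. It was below 2 in 5 steady genes and in none of the other 1834 genes of the window, whose median ratio was 11.5. The coefficient of variation of CPM over 12 libraries was 8.57% in the median steady gene, against 25.5% in the median of the other window genes.

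**Figure D2:**
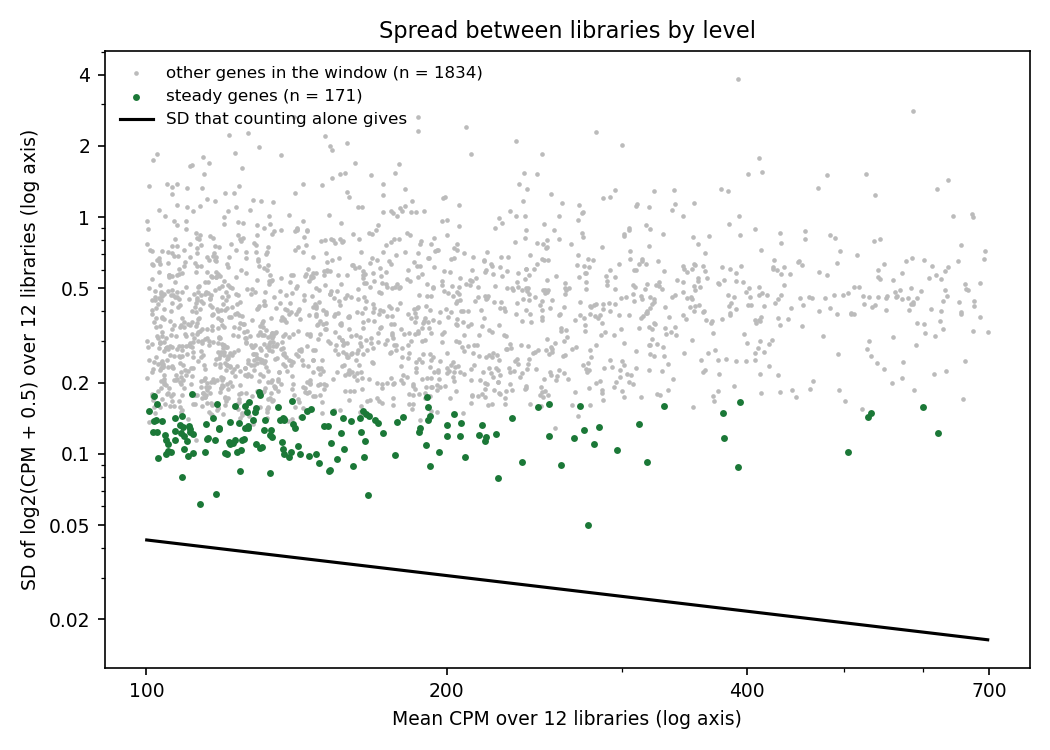
SD of log2(CPM + 0.5) over the 12 libraries against mean CPM, both on log axes, for the 171 steady genes and the other 1834 genes from 100 to 700 CPM. The line is the SD from counting alone, and all points lie above it, the nearest being gene:RC4G0173200 at 1.51 times the line.

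The remaining variation was split differently from gene to gene. In the median steady gene, auxin held 8.54% of the sum of squares between libraries, sucrose 8.34%, their interaction 3.58%, harvest 14.9% and the rest 44.3%. The mean shares were 15.2% for auxin, 11.6% for sucrose, 8.03% for the interaction, 19.0% for harvest and 46.2% for the rest, where the degrees of freedom alone would give means of 9.09%, 9.09%, 9.09%, 18.2% and 54.5%. Per degree of freedom, auxin was the largest of these 4 named sources in 63 of 171 genes, sucrose in 43, harvest in 39 and the interaction in 26. The same counts are not given here for the other window genes. In the other window genes the median shares were 33.0% for auxin, 14.2% for sucrose, 2.42% for the interaction, 14.0% for harvest and 22.3% for the rest. The shares of both treatments were lower than in the other window genes, which follows in part from the choice, since a treatment effect widens the range. Their means in the steady genes still lay above those that the degrees of freedom alone would give. Means of the 4 treatments differed by a ratio of 1.02 to 1.34 (highest over lowest, median 1.13) and means of the 3 harvests by 1.00 to 1.18 (median 1.08). The treatment means number 4 with 3 libraries each, and the harvest means 3 with 4 libraries each, so these ratios are not on one footing.

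The extreme values were not spread evenly over the libraries. Replicate 1 of 10 mM sucrose with auxin held the lowest value of 45 steady genes and the highest of 14. Replicate 3 of 100 mM sucrose without auxin held the lowest of 41 and the highest of 8. Highest values were most frequent in replicate 2 of 10 mM sucrose with auxin (38 genes) and replicate 3 of 10 mM without auxin (30 genes). By group means, 10 mM sucrose with auxin was lowest for 73 of 171 genes and highest for 36, and 10 mM without auxin was lowest for 26 and highest for 55. Such counts are not given here for the other window genes. The library medians of the deviation from each gene's mean stayed between -0.08 and 0.07 on the log2 scale. Within 1 harvest, the 4 treatments spanned a median range of 0.27 in June, 0.21 in August and 0.27 in October. Within 1 treatment, the 3 harvests spanned 0.20 at 100 mM with auxin, 0.20 at 100 mM without it, 0.22 at 10 mM with auxin and 0.16 at 10 mM without it. A range over 4 libraries tends to be wider than one over 3, so ranges within a harvest and within a treatment are not on one footing.

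**Figure D3:**
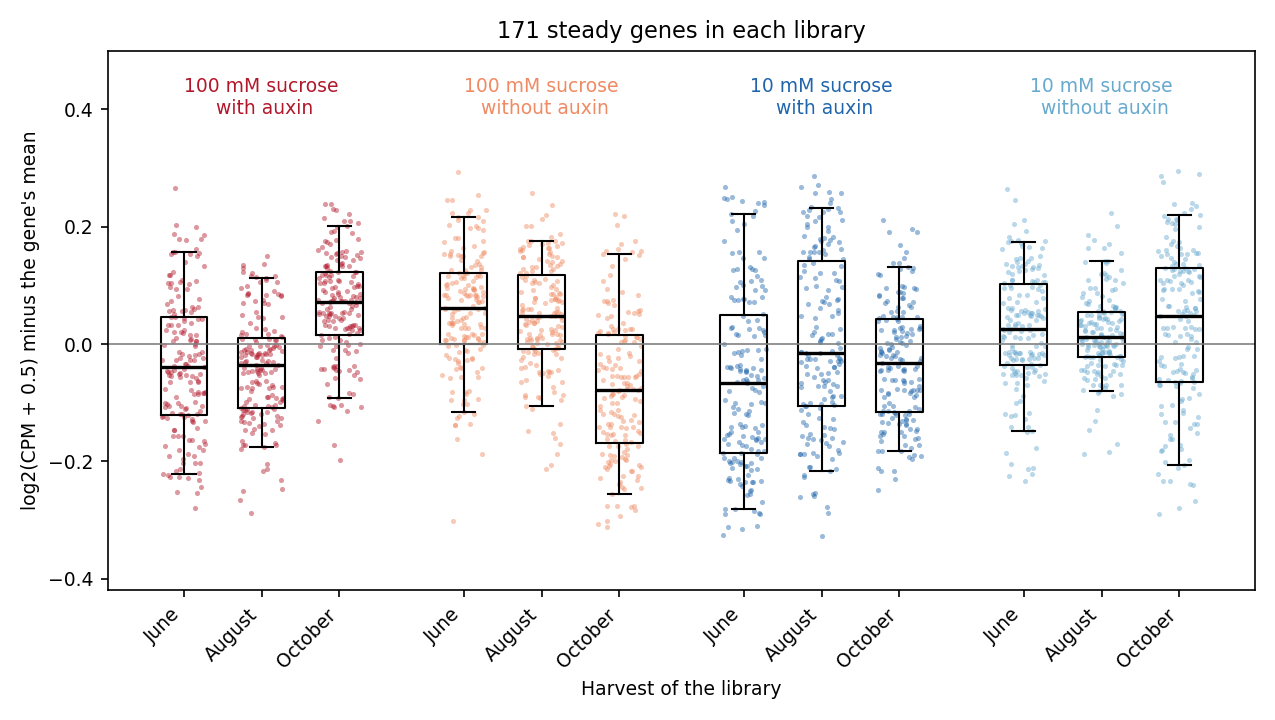
Deviation of each of the 171 steady genes from its own mean on the log2(CPM + 0.5) scale, with 1 column per library by treatment and harvest. Boxes give quartiles and median, whiskers the 5th and 95th percentiles. The medians lie between -0.08 and 0.07, lowest in the October library of 100 mM sucrose without auxin.

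The set of steady genes depended on how the libraries were scaled. With total gene counts in place of TMM, 52 genes met the rule, and 23 of them were among the 171. With replicate 1 of 10 mM sucrose with auxin left out, total gene counts gave 276 genes, of which 159 were among the 171, and TMM gave 278, of which 166 were. Without replicate 2 of the same group, total gene counts gave 100 genes, with 28 of the 171, and TMM gave 260, with 149. Leaving out any other library gave 52 to 77 genes by total gene counts. The scaling used by DESeq2 gave 183 genes with 161 shared, and upper-quartile scaling 173 with 139 shared. A measure that needs no scaling was taken too: the SD over libraries of the log2 ratio of a gene to another window gene, averaged over all of them. It was 0.434 to 0.483 for the steady genes, with a median of 0.454. For the other window genes it started at 0.443, with a median of 0.562, so the sets overlapped. The measure used the same 12 libraries as the rule, so low values in the steady genes follow in part from the choice. The 171 window genes lowest by this measure included 115 steady genes.

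The range itself could be taken in libraries that had no part in a choice. When the rule was applied to the 8 libraries of August and October, 390 genes met it. In the 4 June libraries, scaled on their own, 271 of them (69.5%) stayed under the limit, with a median range of 0.39, against 387 of the other 1677 window genes (23.1%), with a median of 0.84. With August left out, 210 of 273 chosen genes (76.9%) stayed under it, with a median of 0.31, against 392 of 1693 others (23.2%), with a median of 0.87. With October left out, 239 of 282 (84.8%) did, with a median of 0.32, against 531 of 1716 others (30.9%), with a median of 0.68. Genes chosen on 8 libraries could still be far apart in the next 4, as the widest range was 1.93 in June, 1.15 in August and 1.19 in October. The chosen genes were lists of their own, not the steady genes as a set. Of the steady genes, these lists held 169 with June left out, 147 with August left out and 153 with October left out. A range over 4 libraries tends to be narrower than one over 8, so the limit was easier to meet in the harvest left out. Those 4 libraries also share a harvest, so their range holds no spread between harvests, which the range over 8 did. The percentages therefore compare chosen genes with other genes, and are no test of the steady genes. The June set holds the library that stood apart.

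**Figure D4:**
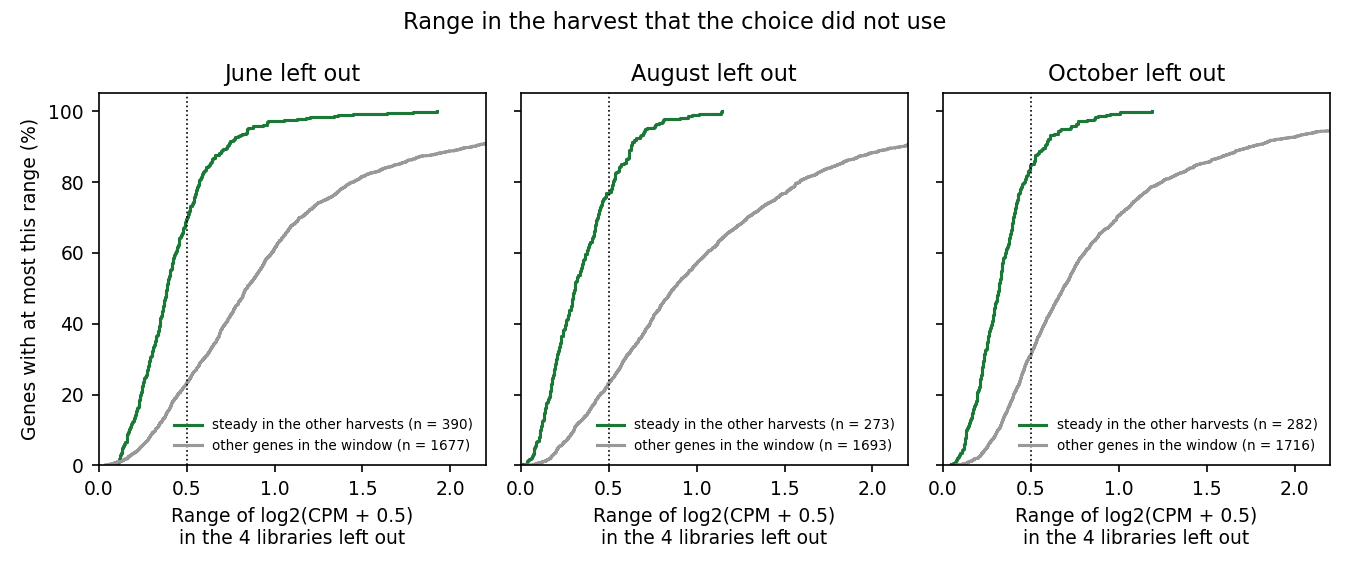
Percentage of genes with at most a given range of log2(CPM + 0.5) in the 4 libraries of a harvest that was left out of the choice. Genes that met the rule in the other harvests are set beside the other window genes. The dotted line is the limit of 0.5, which 69.5%, 76.9% and 84.8% of the chosen genes stayed under in June, August and October.

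The design asks what auxin and sucrose each changed. A model with 1 mean per group was fitted by edgeR to all 24267 genes that passed the low-count filter, and all 171 steady genes passed. Averaged over both sucrose doses, the auxin effect on the steady genes ran from -0.26 to 0.21 on the log2 scale, with a median of -0.03. It was below 0 in 113 of them and above 0 in 58. In the whole CPM window, these genes included, it was above 0 in 904 of 2005, with a median of -0.06. Over all genes tested the median was 0.02. The median size of the auxin effect was 0.07 in the steady genes, against 0.31 over all genes tested. The average sucrose effect (100 over 10 mM) ran from -0.19 to 0.18 with a median of 0.02, and its median size was 0.06, against 0.24 over all genes tested. By dose, the auxin effect ran from -0.27 to 0.26 at 100 mM sucrose and from -0.35 to 0.23 at 10 mM. The sucrose effect ran from -0.26 to 0.29 with auxin and from -0.23 to 0.23 without it.

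Since the rule used these libraries, calls among the steady genes are given without being read as evidence. For the average auxin effect, edgeR called 1 of 171 at a Benjamini-Hochberg adjusted p under 0.05, where 24.7% of all genes tested were called. For the average sucrose effect it called 0, where 11.8% of all genes were called. At an unadjusted p under 0.05, edgeR had 8 steady genes for auxin and 1 for sucrose. In the whole CPM window of 2005 genes, these included, it had 1050 and 693. DESeq2 called 7 steady genes for auxin and 1, gene:RC2G0580000, for sucrose. The share of all genes that DESeq2 called is not given here, and the edgeR shares come from another test. The gene called by edgeR was gene:RC3G0327200, whose average auxin effect of -0.26 (SE 0.088) and average sucrose effect of 0.18 (SE 0.088) were the lowest and the highest of the 171. It had 119, 118 and 146 CPM at 100 mM with auxin, 139, 149 and 150.2 at 100 mM without it, 107, 107 and 113 at 10 mM with auxin and 132, 136 and 140.4 at 10 mM without it. The library with auxin was lower than the one without it in 6 of 6 pairs of the same harvest and dose. Across harvests, the groups did not overlap at 10 mM and did at 100 mM. With libraries left out in turn it was called in 1 of 12 fits, the one without replicate 3 of 100 mM sucrose with auxin.

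By edgeR, a further gene was called once harvest was a replicate block, which made 2 calls. No share of all genes is given here for that fit. The further gene was gene:RC4G0493400, at 241 ± 21.5 CPM at 100 mM with auxin, 287 ± 4.74 at 100 mM without it, 221 ± 8.88 at 10 mM with auxin and 264 ± 7.31 at 10 mM without it (SD, n = 3 each). Its average auxin effect in the fit with the block was -0.26 (SE 0.093). DESeq2 also called this gene for auxin, with no block in the fit. Its libraries with auxin lay below those without it at both doses. Levels at 100 mM ran from 224 to 265 CPM with auxin and from 284 to 293 without it. At 10 mM they ran from 210 to 226 CPM with auxin and from 257 to 272 without it. Auxin held 69.4% of its variation. The gene on the next row of the files, gene:RC4G0493500, was also steady, at a mean of 122 CPM, and these were the one pair of steady genes on neighbouring rows. That neighbour had its highest value, 147 CPM, in replicate 2 of 10 mM with auxin.

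In the other direction, the largest positive auxin effects were 0.21 (SE 0.10) for gene:RC2G0107600 and 0.19 (SE 0.083) for gene:RC6G0520000. Gene:RC6G0520000 stood at 109.6 ± 3.15 CPM at 100 mM with auxin, 92.9 ± 9.13 at 100 mM without it, 107 ± 2.14 at 10 mM with auxin and 97.4 ± 9.62 at 10 mM without it (SD, n = 3 each). At each dose the spread was narrower with auxin than without it in this gene, a difference that was not tested. For sucrose, gene:RC7G0547300 was the next highest, at 0.17 (SE 0.11). The lowest were gene:RC1G0573800 at -0.19 (SE 0.093) and gene:RC2G0580000 at -0.17 (SE 0.076). Gene:RC2G0580000 had 102, 103 and 100.4 CPM at 100 mM with auxin, against 119, 119 and 117 CPM at 10 mM with auxin. Without auxin it had 100.3, 103 and 91.5 CPM at 100 mM, against 105, 111 and 111 CPM at 10 mM. The libraries of the 2 doses did not overlap in either pair, although the gene met the rule with a range of 0.37.

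**Figure D5:**
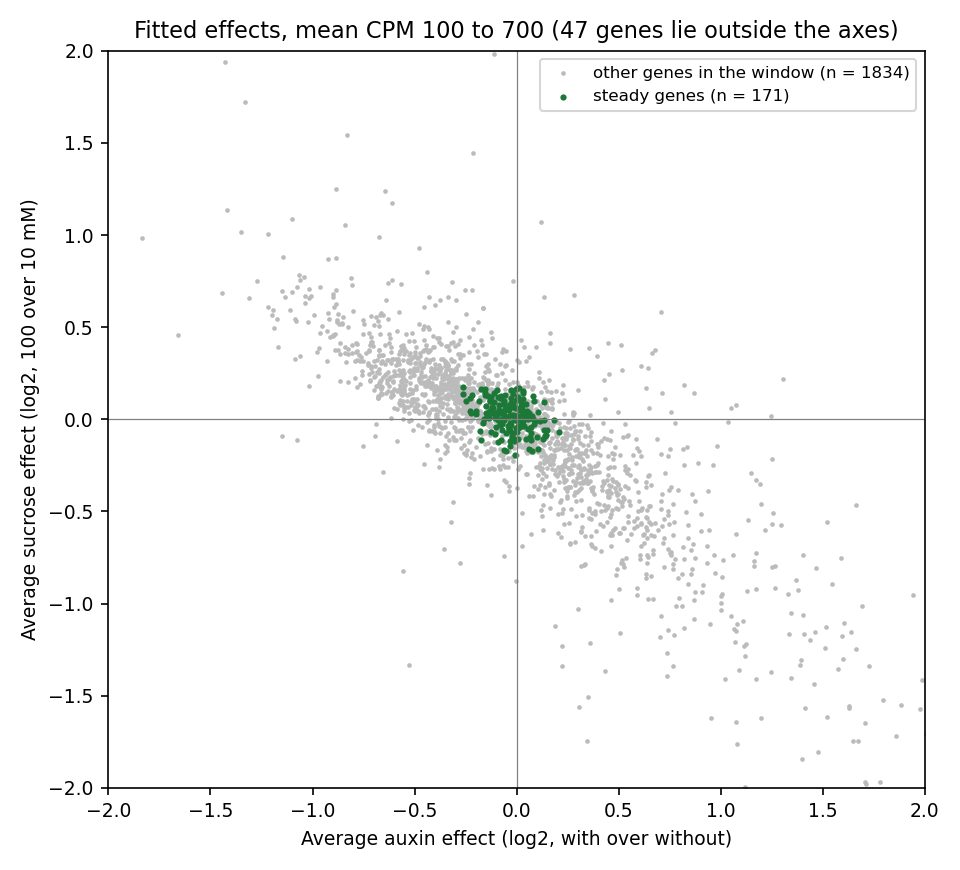
Average sucrose effect (100 over 10 mM, log2) against average auxin effect (with over without, log2) as fitted by edgeR, for the 171 steady genes and the other 1834 genes from 100 to 700 CPM, of which 47 lie outside the axes. Steady genes lie within -0.26 to 0.21 for auxin and -0.19 to 0.18 for sucrose.

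The files also count the reads on the opposite, forward strand of each gene, which the rule did not use. These reads were few. Over the 12 libraries a steady gene had 5 to 326 of them, with a median of 26, and the share of forward-strand counts was 0.126% in the median steady gene and 0.117% in the median of the other window genes. It exceeded 1% in 1 steady gene and in 38 of the other 1834. The steady gene was gene:RC7G0008300, with 315 forward-strand counts and a share of 1.47%, and it was also the one steady gene that lost over 1% of its counts when strand was ignored. Gene:RC7G0000200 and gene:RC6G0274200 followed at 0.741% and 0.685%. Just outside the range limit, gene:RC0G0116100 had 13374 forward-strand counts, a share of 44.3%. Ignoring strand cost no count in 141 of 171 steady genes, and in 1437 of 1834 other window genes.

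Summed over the 171 genes, the forward-strand share was 0.152%, 0.0714% and 0.242% at 100 mM with auxin, 0.143%, 0.249% and 0.263% at 100 mM without it, 0.107%, 0.196% and 0.127% at 10 mM with auxin, and 0.183%, 0.0796% and 0.0790% at 10 mM without it. The groups overlapped, and values within a group lay as far apart as 0.0714% and 0.242%. Within harvests the share was higher with auxin in 3 of 6 pairs and higher at 100 mM sucrose in 4 of 6. The share of the other window genes ran from 0.145% to 0.334% over the same libraries. It was 0.334%, 0.308% and 0.304% where the steady genes had 0.263%, 0.249% and 0.242%. Where the steady genes had 0.0714%, 0.0790% and 0.0796%, it was 0.157%, 0.145% and 0.158%. Replicate 1 of 10 mM sucrose with auxin departed from this order, with 0.269% in the other window genes against 0.107%.

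Forward-strand counts were tested by edgeR in their own right. Of 2202 genes that passed the low-count filter on this strand, 24 were steady genes, so most steady genes could not be tested, and a gene can pass through its higher groups alone. None of the 24 was called for the average auxin effect, where 7.31% of all genes tested were called, with 0 at an unadjusted p under 0.05. None was called for the average sucrose effect, where 4.77% of all were called, with 1 at an unadjusted p under 0.05. DESeq2 also called 0 for both. Of the 399 tested genes of the CPM window, edgeR called 11 for auxin (2.76%) and 9 for sucrose (2.26%). The median SE of the 24 was 0.53 for auxin and 0.51 for sucrose, against 0.34 over all genes tested. With so few genes and such SEs, 0 calls cannot set the steady genes apart from other genes of the window. The fitted sucrose effects of the 24 were all above 0, with a median of 0.49, against 0.07 over all genes tested. The tested genes of the whole CPM window, these 24 included, leaned the same way, with 325 of 399 above 0 and a median of 0.46. With library sizes from the reverse-strand counts, again 24 of 24 lay above 0, with a median of 0.50. The 24 were kept by their counts, so these values are a description, and their cause was not tested. With no low-count filter and all 171 genes tested, edgeR again called 0, with 5 and 10 genes at an unadjusted p under 0.05. The matching shares of all genes are not given here for the unfiltered fit. The smallest p for sucrose was that of gene:RC7G0078800, whose forward-strand counts summed to 20 and 25 at 100 mM with and without auxin, against 12 and 10 at 10 mM (log2 effect 1.23, SE 0.56, edgeR adjusted p = 0.251). For auxin it was that of gene:RC1G0246000, with 72 and 81 forward-strand counts with auxin at 100 and 10 mM, against 100 and 73 without it (log2 effect -0.41, SE 0.33, edgeR adjusted p = 0.518).

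The digit that follows RC in an ID runs from 0 to 7. Steady genes carried each of them, with 8, 17, 36, 20, 15, 26, 22 and 27 genes for digits 0 to 7. As a share of the window genes with the same digit they made up 6.44% (digit 4) to 10.2% (digit 2), near the 8.53% of the whole window.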

How the data were processed

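The authors deposited 1 file per library with raw counts per gene, not normalised, with a column for each of 3 ways of counting per the file headers (no strand, forward, reverse). PolyA selection and stranded, paired-end reads are stated per the labels. TopHat2 and Bowtie2 appear per the submitters' processing notes, with their role, the build and the annotation not given in the sources used here. In each file, 4 summary rows named no gene, held 17.3% to 23.2% of reads and were left out. Reads of near-identical gene copies may have been lost to multimapping.

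Values come from the reverse column, because the forward column held just 3.37% to 5.00% of the counts of both. CPM used TMM factors from all genes. Counting SD was computed from each gene's mean CPM and the library sizes. Shares of variation are sums of squares of log2(CPM + 0.5). Counts were fitted with edgeR 4.0.16 in R 4.3.3 (quasi-likelihood test, filterByExpr with minimum count 10 and minimum total 15, 1 mean per group over 12 libraries, Benjamini-Hochberg adjustment over all genes tested). DESeq2 1.42.0 was an alternative. The edgeR steps were tested on simulated data with log2 auxin changes of 1 and 2. At 1, the fit recovered 76% of changed genes on reverse-strand and 81% on forward-strand counts. It also called 13 and 11 unchanged genes. Changes as small as those of the steady genes on reverse-strand counts were not simulated. For reverse-strand counts of genes this abundant, the spread between libraries mainly sets the precision. Forward-strand counts of steady genes were few, with a median of 26 over 12 libraries, so counting error also enters their SEs. The p-values measure the spread between these libraries.

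Same-numbered libraries share a harvest date in the labels, so the number pairs them. As a check, deviations of the 18 pairs from their groups had a mean correlation of 0.298 over all tested genes, with 16 pairs over 0.1. Over the steady genes alone it was 0.148, with 11 pairs over 0.1 and a lowest value of -0.276. The least different replicates differed by a chi-square of 7.11 per degree of freedom, so none was a duplicate. Genes were named by rank: the smallest ranges, the highest and lowest levels, the largest effects in each direction, the largest forward-strand shares, the smallest forward-strand p and those nearest the limit. Where 3 per rank would repeat a pattern, fewer are printed. The steady genes and these rules were chosen with earlier results of these data known. The ratio measure, upper-quartile scaling and total counts with libraries left out in turn were added after the data were seen.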

Additional observations from a re-analysis of the deposited data

How the results depend on the processing

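The number of steady genes, 171, was 52 with total gene counts, and 52 to 276 with total gene counts and libraries left out in turn. It was 80 with a range limit of 0.4 and 307 with 0.6. It was 167 to 278 with libraries left out in turn, and 390, 273 and 282 without June, August and October. At a fixed scaling, fewer libraries cannot widen a gene's range. It stayed within 1.5 times of 171 under the other alternatives, at 155 on counts that ignore strand, 179 with a pseudocount of 2 and 188 with TMM from filtered genes. Of 34 named steady genes, all under the limit with TMM, 29 stayed under it with DESeq2's size factors and 5 with total gene counts.

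Calls for the average auxin effect, 1 in the edgeR fit, were 0 with DESeq2's size factors, 0 with no low-count filter, 7 by DESeq2, 2 with the replicate block, 0 to 1 with libraries left out in turn, and 0, 0 and 0 without June, August and October. Calls for the average sucrose effect were 1 by DESeq2 and 0 under the other 18 alternatives, with the replicate block included. Shares of all genes called under these alternatives are not given here. Forward-strand calls were 0 under all 20 alternatives for each factor, the block included, where few genes could be tested. The counts of genes steady in a harvest left out stayed within 1.5 times under both alternatives tried. Causes of these shifts were not tested.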
